A study of Homo sapiens with 4 samples.

Results

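The genes described here encode the immunoproteasome and its constitutive counterparts. They comprise the inducible catalytic subunits PSMB8, PSMB9 and PSMB10, the activator subunits PSME1 and PSME2, and the constitutive catalytic subunits PSMB5, PSMB6 and PSMB7. These 8 genes were chosen by symbol from the 20323 genes of the deposited table, and all 8 were found in it. No rule on measured values was used, but earlier results of these data were known when they were chosen. NK-92 is an established human natural killer (NK) cell line that grows in IL-2. Every library came from NK-92 cells transduced with a lentiviral short hairpin RNA, which was a scrambled hairpin in NK scramble (2 libraries) and a hairpin against ADAR1 in NK shADAR1 (2 libraries). ADAR1, encoded by ADAR, is the enzyme that converts adenosine to inosine in double-stranded RNA, and the question was how its loss affects the antitumor capacity of NK cells. Numbers in the sample titles were taken as replicate numbers. The hairpins of the study carry names of the same form, and the sequenced cells are described as those of a single hairpin. The parental cells are 1 line, so the libraries describe that line and not NK cells of different donors.

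The proteasome is a barrel of 4 stacked rings that cuts proteins into peptides. In most cells the cutting is done by the constitutive beta subunits PSMB6 (caspase-like), PSMB7 (trypsin-like) and PSMB5 (chymotrypsin-like). Interferon, above all interferon gamma, induces PSMB9, PSMB10 and PSMB8, which take the places of PSMB6, PSMB7 and PSMB5 in newly built particles and favor peptides that fit MHC class I. PSME1 and PSME2 form PA28, a cap that opens the barrel and is induced by the same cytokine. Lymphocytes hold much immunoproteasome without stimulation.

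The promoters were examined first, because the interferon-stimulated response element (ISRE) is the short motif through which IRF factors reach several of these genes. RefSeq windows of 300 bases on GRCh38.p14, from 250 bases before each transcription start, were given for 6 of the 8 genes and not for PSMB6 and PSMB7. The ISRE core was searched as GAAANNGAAA on both strands and was present in 3.57% of all 35116 windows. It was found in 4 of the 6 genes, once each, which is 4 of their 8 windows. It was also found in TAP1, the peptide transporter gene that lies next to PSMB9. The stretches below are shown because they are the motif matches of these genes. They are printed 5′ to 3′ on the gene's own strand, with the match in capitals, and all hold GAAAGCGAAA, directly or in reverse complement.
PSMB8, second start, chr6:32844032-32844061, minus strand: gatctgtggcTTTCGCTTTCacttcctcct
PSMB10, chr16:67936852-67936881, minus strand: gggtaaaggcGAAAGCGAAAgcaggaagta
PSME1, chr14:24136189-24136218, plus strand: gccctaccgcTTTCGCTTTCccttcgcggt
PSME2, chr14:24146619-24146648, minus strand: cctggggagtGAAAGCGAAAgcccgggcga
TAP1, chr6:32853816-32853845, minus strand: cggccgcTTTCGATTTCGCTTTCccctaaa

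Counted with the first transcribed base as 1, the match lay at bases -21 to -12 in PSMB10 and at bases -28 to -19 in PSME2. In PSMB8 it spanned the second of 2 annotated starts, from -4 to 6, and in PSME1 it lay just inside the transcribed part, at bases 6 to 15. The TAP1 stretch holds 2 overlapping matches, at bases -134 to -119. PSMB9 and TAP1 point away from each other with starts 488 bases apart, and the TAP1 matches ended 354 bases before the PSMB9 start, outside the PSMB9 window. No match was found in the window of PSMB9, in that of the first PSMB8 start or in either window of PSMB5.
The core of the gamma-activated site (GAS), a motif of interferon gamma responses, was searched as TTCNNNGAA, a palindrome present in 7.66% of windows. It occurred once at the second PSMB8 start, at bases -65 to -57, and at 2 places at the second PSMB5 start. The core of the antioxidant response element, through which NRF1 reaches proteasome genes, was searched as TGACNNNGC on both strands and is present in 13.3% of windows. PSMB9, PSME1 and PSME2 each held 1 match. These matches describe letters and not binding.

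The targeted gene was lower in both knockdown libraries but did not pass the test. The paper reports the knockdown in its NK-92 cells from qRT-PCR and western blotting, which are separate from these libraries. ADAR stood at 655 and 682 CPM (counts scaled to library size) in NK scramble against 575 and 482 CPM in NK shADAR1, a log2 fold change of -0.34 (SE 0.20, n = 2 per group) with an adjusted p of 1.00 by the quasi-likelihood test of edgeR. Depth ran from 37881704 to 39960491 estimated counts per library. The log2 CPM of all tested genes correlated at 0.9814 between the NK scramble libraries and 0.9812 between the NK shADAR1 libraries, while values between groups ran from 0.9807 to 0.9885, so libraries of 1 group were no more alike than libraries of different groups. All 12 NK cell markers had at least 10 counts in every library. Of 7 T cell markers, CD3E, CD3D and TRAC reached that level in every library while CD8A and CD8B were at 0, and the summed level of the 7 was 500.0 to 612 FPKM in NK scramble and 582 to 694 FPKM in NK shADAR1. Summed B cell markers stayed at or below 7.8 FPKM, monocyte markers at or below 2.8 FPKM and epithelial and packaging cell markers at or below 0.27 FPKM. In bulk RNA, fewer cells that express a gene and less RNA per cell cannot be told apart.

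The inducible genes were abundant in these cells, whose listed medium contained IL-2 and no interferon. The cells did hold RNA of IFNG, the interferon gamma gene, in every library. Its level ranged from 19.7 CPM (an NK shADAR1 library) to 60 CPM (an NK scramble library). Whether interferon made by the cells themselves contributed to the levels of the inducible genes was not tested. Levels between genes were compared in FPKM, which also scales by transcript length. PSME2 had the highest level, with 488 and 547 FPKM in NK scramble against 442 and 497 FPKM in NK shADAR1. Its partner PSME1 came next, at 317 and 403 FPKM in NK scramble against 349 and 377 FPKM in NK shADAR1. PSMB8, the inducible chymotrypsin-like subunit, had 234 and 199 FPKM in NK scramble against 190 and 192 FPKM in NK shADAR1. The ranges of these 3 genes over the 4 libraries did not overlap, and all 3 lay above the other catalytic subunits in every library.
The other catalytic subunits formed a lower group. PSMB7, the constitutive trypsin-like subunit, ranged from 111 to 163 FPKM and PSMB9, the inducible caspase-like subunit, from 105 to 122 FPKM, so these neighbours in the order overlapped. PSMB10, the inducible trypsin-like subunit, ranged from 76.1 to 98.1 FPKM, below every value of PSMB9. PSMB5, the constitutive chymotrypsin-like subunit, ranged from 70 to 79.2 FPKM and overlapped PSMB10. PSMB6, the constitutive caspase-like subunit, ranged from 49.7 to 74.6 FPKM and overlapped PSMB5. All 8 genes lay in the upper part of the tested genes by mean CPM, between percentile 63.4 and percentile 96.8.

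**Figure D1:**
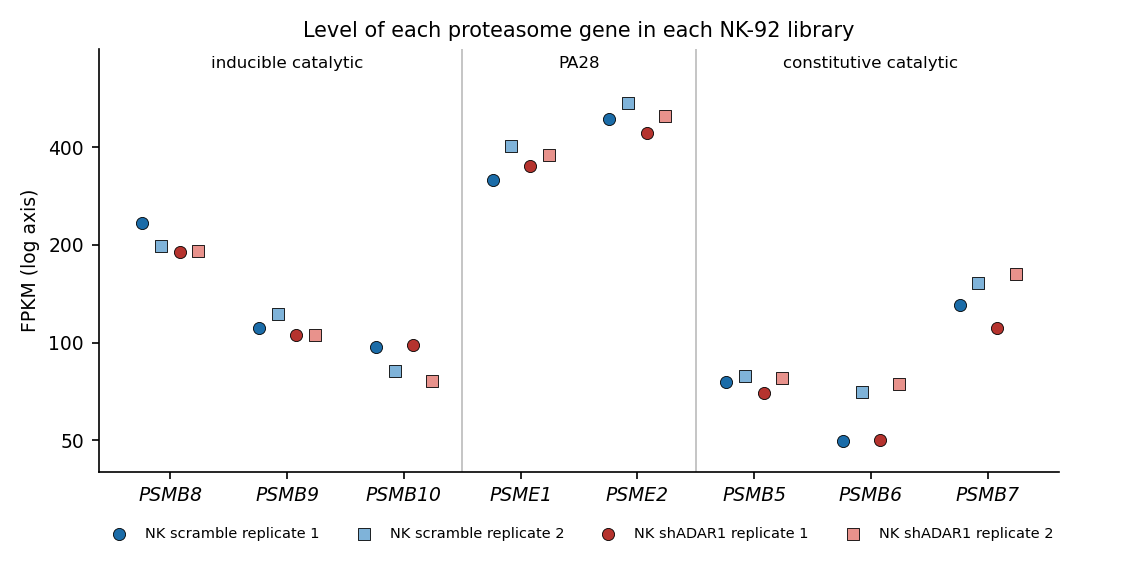
FPKM (log axis) of the 8 proteasome genes in each of the 4 libraries, with circles for replicate 1 and squares for replicate 2. PSME2, PSME1 and PSMB8 lie above the other genes in every library, and the blue (NK scramble) and red (NK shADAR1) points of most genes intermix.

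At each catalytic position the inducible gene can be set against the constitutive gene whose place its product takes. For the chymotrypsin-like position, PSMB8 exceeded PSMB5 3.09-fold and 2.51-fold in the NK scramble libraries, and 2.72-fold and 2.47-fold in the NK shADAR1 libraries. For the caspase-like position, PSMB9 exceeded PSMB6 2.23-fold and 1.73-fold in NK scramble against 2.1-fold and 1.41-fold in NK shADAR1. The trypsin-like position was the other way round, with PSMB10 at 0.741 and 0.537 of the PSMB7 level in NK scramble against 0.886 and 0.467 in NK shADAR1. The inducible gene was thus the larger at 2 of the 3 positions in all 4 libraries and the smaller at the third.
The groups overlapped at every position. The inducible share of the PSMB8 and PSMB5 pair was 73.5% ± 2.88 (SD, n = 2) in NK scramble and 72.1% ± 1.39 in NK shADAR1. For PSMB9 and PSMB6 it was 66.2% ± 3.99 in NK scramble and 63.1% ± 6.47 in NK shADAR1. For PSMB10 and PSMB7 it was 38.8% ± 5.39 in NK scramble and 39.4% ± 10.7 in NK shADAR1. Over all 6 catalytic genes the inducible share was 63.3% and 57.1% in NK scramble against 63% and 54.2% in NK shADAR1, so libraries of 1 group differed by more than the groups did. With 2 libraries against 2, an exact two-sided permutation test of such a ratio cannot go below 0.333, and none was run.

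**Figure D2:**
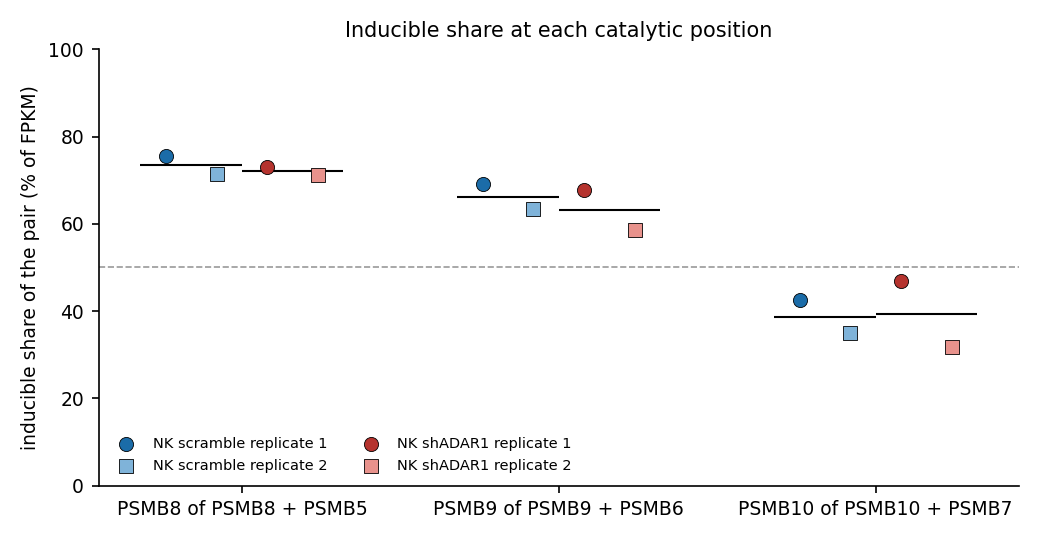
Inducible share (% of summed FPKM) of each catalytic pair by library, with horizontal lines at the group means and a dashed line at equal levels. PSMB8 and PSMB9 make up more than their constitutive partners in all 4 libraries and PSMB10 less than its partner, and the groups overlap for each pair.

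Mature beta rings hold 1 catalytic subunit at each of these positions beside PSMB1, PSMB2, PSMB3 and PSMB4. Summed over both genes, the mean level was 279 FPKM for the chymotrypsin-like position, 172 FPKM for the caspase-like position and 228 FPKM for the trypsin-like position. The non-catalytic beta genes averaged 63.2 FPKM (PSMB2) to 277 FPKM (PSMB4), and the alpha ring genes 55.6 FPKM (PSMA2) to 316 FPKM (PSMA7). The position sums lay within the range of the other ring subunits, which is too wide to show that levels match. PSME1 and PSME2, whose products share 1 ring, had a ratio of 0.65 and 0.738 in NK scramble against 0.79 and 0.759 in NK shADAR1. Of the 4 ratios this was the only one whose groups did not overlap. It was not tested, and with 2 libraries against 2 such a separation cannot go below 0.333 in an exact two-sided permutation test.

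None of the 8 proteasome genes passed the test between NK shADAR1 and NK scramble. The threshold for a differentially expressed gene was a 1.5-fold change with an adjusted p (Benjamini-Hochberg) below 0.05, and by edgeR 0 of the 11810 tested genes (0%) passed, members included. At an unadjusted p under 0.05, edgeR gave 293 genes and DESeq2 275, with 0 after adjustment by DESeq2 as well. The paper, by contrast, reports differentially expressed genes from DESeq2 at the same thresholds. The reason for this difference was not tested. Of the 8 members, 0 had an unadjusted p under 0.05, against 0.779% of all tested genes on the lower and 1.7% on the higher side. All 8 had passed the filter on low counts. In direction, 6 members were lower and 2 higher in NK shADAR1.
PSMB8 had 266 and 233 CPM in NK scramble against 210 and 229 CPM in NK shADAR1. Both knockdown libraries lay below both controls, narrowly, and the log2 fold change was -0.18 (SE 0.19, 95% interval -0.61 to 0.24). Of the 8 genes it alone had CPM values that did not overlap between the groups, where 12.6% of all tested genes were separated in this direction and 13.3% in the other. PSMB9 had 109 and 126 CPM in NK scramble against 93.6 and 110 CPM in NK shADAR1, with a log2 fold change of -0.21 (SE 0.20, interval -0.66 to 0.24). Its groups overlapped in CPM by a single library, with the TMM factors applied. Scaled to total estimated counts alone, both NK shADAR1 libraries lay below both NK scramble libraries for PSMB9 as well. The share of all tested genes separated on that scale was not counted, so this separation has no background beside it. PSMB10 had 93.7 and 81.4 CPM in NK scramble against 92.2 and 76.8 CPM in NK shADAR1, a log2 fold change of -0.05 (SE 0.20, interval -0.50 to 0.40), with the groups interleaved.
The PA28 genes did not pass the test either. PSME1 had 303 and 396 CPM in NK scramble against 325 and 375 CPM in NK shADAR1, the knockdown values lying between the controls. Its log2 fold change was 0.004 (SE 0.21, interval -0.47 to 0.48). For PSME2 the values were 391 and 448 CPM in NK scramble against 346 and 414 CPM in NK shADAR1, a log2 fold change of -0.14 (SE 0.20, interval -0.60 to 0.31) with overlapping groups.
Among the constitutive genes, PSMB5 had 77.8 and 82.6 CPM in NK scramble against 69.8 and 83.3 CPM in NK shADAR1, so the knockdown libraries lay on either side of the controls. Its log2 fold change was -0.07 (SE 0.20, interval -0.51 to 0.38). PSMB6 had 40.5 and 59.1 CPM in NK scramble against 39.9 and 63.5 CPM in NK shADAR1, a log2 fold change of 0.05 (SE 0.27, interval -0.54 to 0.65). PSMB7 had 128 and 150 CPM in NK scramble against 105 and 159 CPM in NK shADAR1, a log2 fold change of -0.07 (SE 0.23, interval -0.59 to 0.45). For PSMB6 and PSMB7, too, the controls lay inside the span of the knockdown libraries.

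Differences within a group set the limit of these comparisons. The 2 libraries of a group differed on the log2 CPM scale by 0.54 for PSMB6 in NK scramble and by 0.67 in NK shADAR1, and PSMB7 differed by 0.60 in NK shADAR1. PSMB8 was steadier, at -0.19 in NK scramble and 0.12 in NK shADAR1. In every other member, replicate 2 differed from replicate 1 in the same direction in both groups. In NK scramble and NK shADAR1 these differences were 0.22 and 0.23 for PSMB9, 0.20 and 0.26 for PSME2, and -0.20 and -0.26 for PSMB10. The share of all tested genes with such an agreement of direction was not counted. Deviations of equally numbered libraries correlated at 0.308 over all tested genes, so the agreement is not particular to the members. What equally numbered libraries share is not stated, so this shared part of the spread may not be random. Intervals of 4 members (PSMB8, PSMB9, PSME2 and PSMB7) reached a 1.5-fold decrease, and that of PSMB6 reached a 1.5-fold increase. The intervals of PSMB10, PSME1 and PSMB5 lay within 1.5-fold on either side. The median log2 fold change was -0.14 for the 5 inducible and PA28 genes and -0.07 for the 3 constitutive genes, against 2.76e-05 for all tested genes. Leaving out 1 library at a time moved the former between -0.24 and -0.10 and the latter between -0.32 and 0.19.

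**Figure D3:**
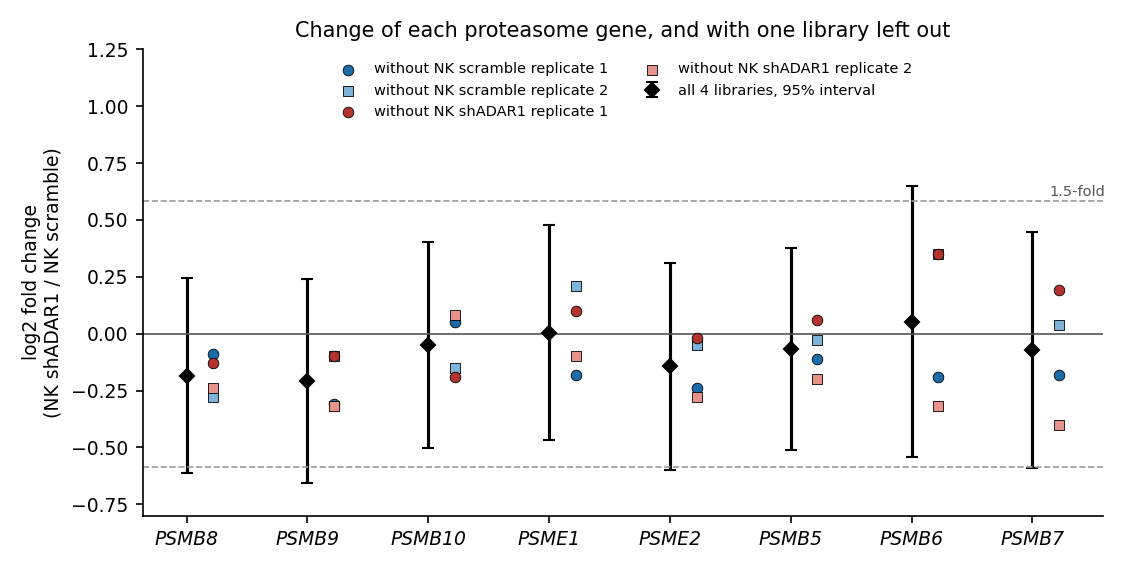
Log2 fold change of each proteasome gene (NK shADAR1 over NK scramble) with its 95% interval (diamond and bars), beside the value when 1 of the 4 libraries is left out (colored points); dashed lines mark 1.5-fold. All 8 intervals cross 0, and PSMB10, PSME1, PSMB5, PSMB6 and PSMB7 have points on both sides of 0, whereas PSMB8, PSMB9 and PSME2 stay below it.

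Several of these genes overlap others, and the counting was not stated to use strand. On GRCh38 (GENCODE 29), PSMB8 (chr6:32840717-32844703, minus) shares exonic sequence with PSMB9 (chr6:32844136-32859585, plus) and both overlap the antisense gene PSMB8-AS1, which is not in the table. PSME2 (chr14:24143362-24147570, minus) overlaps RNF31 and PSME1 (chr14:24136158-24138967, plus) overlaps EMC9, each on the opposite strand. PSMB10 (chr16:67934502-67937087, minus) shares exons on its own strand with the readthrough gene AC040162.1, which was given 6.2 to 22.4 estimated counts. PSMB5 (chr14:23016543-23035230, minus), PSMB6 (chr17:4796144-4798503, plus) and PSMB7 (chr9:124353466-124415444, minus) had no exon overlap.
Of the 8 genes, PSMB9 was the one whose counts and FPKM parted most. The effective length implied by the 2 values ranged from 922.1 to 1015 bases over the libraries, 9.4% of its mean, against a median of 5.27% over 9630 genes with at least 100 counts in every library. The FPKM of PSMB9 were 111 and 122 in NK scramble against 105 and 105 in NK shADAR1, so that on this scale its groups did not overlap. Those of PSMB8 did not overlap in FPKM either, and the share of all genes separated in FPKM was not counted. By limma on log2(FPKM + 1) the log2 fold change of PSMB9 was -0.14, against -0.21 by counts. PSMB7 showed a range of 4.24% and the other 6 genes at most 1.32%.

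The rest of the particle also showed small differences. All 33 other subunits of the 20S core and the 19S cap were tested, of which 12 were higher and 21 lower, 0 with an unadjusted p under 0.05. Their log2 fold changes ran from -0.25 to 0.23 with a median of -0.020. The 7 alpha ring genes had a median of -0.06, with PSMA3 at -0.20 and PSMA7 at 0.09, and the 4 non-catalytic beta genes a median of -0.004, with PSMB1 at 0.10 and PSMB2 at -0.06. The 6 ATPases of the 19S cap, which unfold substrates, had a median of 0.04. Of these, PSMC6 had 61.6 and 55.4 CPM in NK scramble against 62.6 and 70 CPM in NK shADAR1, and PSMC4 had 134 and 132 CPM against 111 and 126 CPM. The 16 other 19S genes had a median of -0.02, from PSMD11 at -0.25 to SEM1 at 0.23.
Genes that serve the particle were similar. PSME3, which forms the nuclear PA28 gamma cap, had 325 and 354 CPM in NK scramble against 264 and 319 CPM in NK shADAR1 (log2 fold change -0.22, SE 0.20). The activator PSME4 stood at 0.14 and the inhibitor PSMF1 at -0.08. Among 7 assembly chaperones 6 were lower, with POMP, which matures new beta rings, at -0.05, PSMG2 at -0.15 and its partner PSMG1 at -0.38 (SE 0.23). PSMG1 had 65.5 and 74.5 CPM in NK scramble against 43.1 and 64.5 CPM in NK shADAR1. Of the 5 genes of the NRF1 axis, which replenishes proteasome genes when activity is short, NFE2L1 (which encodes NRF1) stood at -0.16 and NFE2L3 at -0.28. The 9 tested ubiquitin and shuttle factor genes had a median of 0.008, with 5 higher and 4 lower. In these 4 lists, too, 0 genes had an unadjusted p under 0.05. The thymus subunit PSMB11 and the testis subunit PSMA8 were below the count filter.

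The inducible genes answer to regulators on the interferon side. Of 11 tested interferon-side regulators, 8 were lower and 3 higher, with a median log2 fold change of -0.19. In this list 6 had both knockdown libraries below both controls (12.6% of all tested genes). IFNG, which encodes interferon gamma, had 32.3 and 60 CPM in NK scramble against 19.7 and 22.5 CPM in NK shADAR1, a log2 fold change of -1.13 (SE 0.28, edgeR unadjusted p = 0.00236, adjusted p = 1.00). Its log2 fold change was -0.62 without the second NK scramble library and -1.51 without the first. IRF9, the DNA-binding subunit of the factor that binds the ISRE after type I interferon, had 47.6 and 41.7 CPM in NK scramble against 38.1 and 13.3 CPM in NK shADAR1, a log2 fold change of -0.80 (SE 0.38). The second knockdown library was the low one, and the log2 fold change of IRF9 was -0.23 without it and -1.75 without the first. IRF9 lies close to PSME1 and PSME2 on chromosome 14.
IRF1 and NLRC5, which also act on immunoproteasome genes, had smaller differences. IRF1 had 185 CPM in both NK scramble libraries and 178 and 133 CPM in NK shADAR1 (log2 fold change -0.25, SE 0.21), and NLRC5, the MHC class I transactivator, had 76.2 and 76.3 CPM against 78.2 and 74.1 CPM (log2 fold change -0.002, SE 0.19). With 1 library left out, IFNG reached an adjusted p of 0.0333 by edgeR (without the first NK scramble library) and IRF9 an adjusted p of 0.0406 (without the first NK shADAR1 library), where the lone remaining library was assumed to vary like the other group. No member went below an adjusted p of 0.986 under any setting tried.

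Downstream of the proteasome, 14 of 17 tested genes of peptide supply to MHC class I were lower and 3 higher, with a median of -0.22. In 10 of the 17 both knockdown libraries lay below both controls, against 12.6% of all tested genes, and 1 was lower with an unadjusted p under 0.05, against 0.779% of all tested genes. The list holds HLA genes whose reads near-identical copies can share. TAP1, a subunit of the peptide transporter, had 265 and 241 CPM in NK scramble against 182 and 157 CPM in NK shADAR1, a log2 fold change of -0.58 (SE 0.19, edgeR unadjusted p = 0.0136, adjusted p = 1.00). Its interval of -1.01 to -0.15 did not include 0, and the value stayed between -0.69 and -0.47 with any 1 library left out. LAP3, an aminopeptidase that trims peptides, stood at -0.43 (SE 0.21).
TAP1 (chr6:32845209-32853978, minus) lies within the span of PSMB9 and starts opposite it. The ratio of TAP1 to PSMB9 was computed after the values of both were seen. In CPM it was 2.44 and 1.91 in NK scramble against 1.95 and 1.43 in NK shADAR1, so the groups overlapped, whereas in FPKM it was 0.915 and 0.732 against 0.7 and 0.55 and they did not. A larger difference of TAP1 than of PSMB9 was therefore not shown on both scales. Of the 8 tested neighbours of the member genes, 5 were lower and 3 higher, with a median of -0.11.

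**Figure D4:**
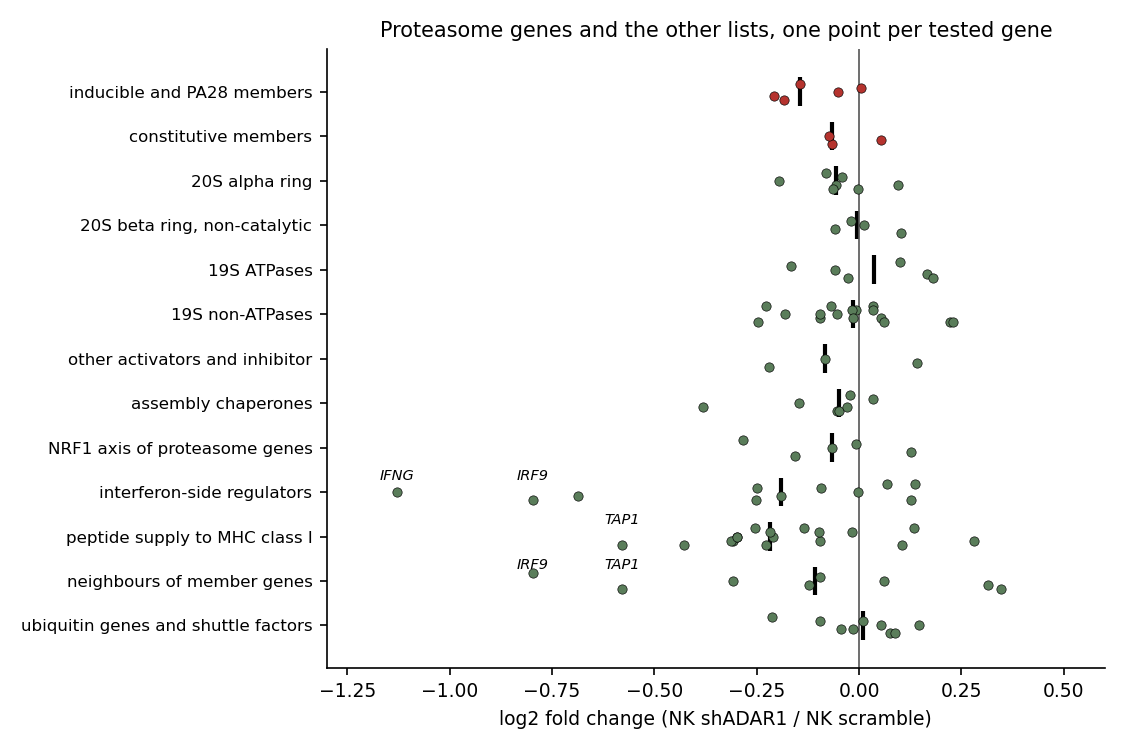
Log2 fold change (NK shADAR1 over NK scramble) of every tested gene of the proteasome members (red) and of the other lists (green), with a bar at each list's median; IFNG, IRF9 and TAP1 are named, the latter 2 in both lists that hold them. Proteasome genes lie close to 0, and IFNG, at -1.13, lies furthest to the left.

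The 5 inducible and PA28 genes had a mean profile of small amplitude over the 4 libraries, and many other genes lay close to it. The root mean square distance of log2 CPM, centred per gene, was smallest for TET3 (0.00754), PRMT3 (0.00948), UHRF2 (0.0131), CYB5D1 (0.0137) and CCDC50 (0.014), out of 9874 genes whose mean normalized count was 100 or more. The median distance was 0.172, and 273 genes lay within 0.05. The members themselves were further away, from 0.0681 for PSME2 to 0.169 for PSMB10 among those that made the profile, while PSMB5, which did not enter it, lay at 0.0557. Constitutive PSMB7 and PSMB6 lay at 0.18 and 0.268.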

How the data were processed

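The authors extracted total RNA, selected mRNA with oligo(dT) beads and deposited 1 table of estimated counts per gene, not normalized, and of FPKM values. Per the submitters' processing notes reads were filtered with fastp 0.18.0; the aligner, counting program and build were not given in the sources used here.

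Of 20323 genes, 20301 matched a symbol. Counts were rounded and fitted in edgeR 4.0.16 (R 4.3.3) with TMM factors, after filterByExpr at a minimum count of 10; quasi-likelihood p-values were adjusted by Benjamini-Hochberg over 11810 genes; settings were tested on simulated data. The standard error was the log2 fold change divided by the square root of F. DESeq2 1.42.0, limma 3.58.1 on log2(FPKM + 1) and log2(FPKM + 0.1), other scalings and filters, a replicate block and leave-one-out fits were alternatives. The libraries are described as independent biological replicates. Members, gene lists and the rule for named genes (the 8 members, ADAR, fixed regulators, the 2 largest log2 fold changes per list and the 5 nearest profiles) were chosen with earlier results of these data known. Promoter sequences are from RefSeq, and gene positions from GENCODE 29 (GRCh38). Some genes of the lists are not reported here.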

Additional observations from a re-analysis of the deposited data

How the results depend on the processing

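Of the 8 members, 0 passed the threshold under any alternative, and PSMB8, PSMB9 and PSME2 remained below 0 in all of them. With 1 library left out in turn, the log2 fold change ranged from -0.19 to 0.08 for PSMB10, from -0.18 to 0.21 for PSME1, from -0.20 to 0.06 for PSMB5, from -0.32 to 0.35 for PSMB6 and from -0.40 to 0.19 for PSMB7. PSME1 was also at -0.00067 with no filter beyond 1 count. The number of genes called rose from 0 to 213 when the unadjusted p replaced the adjusted one, and to between 1 and 16 with 1 library left out (8 without NK scramble replicate 1, 1 without NK scramble replicate 2, 16 without NK shADAR1 replicate 1 and 2 without NK shADAR1 replicate 2). The cause was not tested.

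With a replicate block 13 genes were called. IFNG was among them, at a log2 fold change of -1.07 and an adjusted p of 0.0425 by edgeR, and no member was. The labels give both groups the same replicate numbers but do not say what they share. Deviations of equally numbered libraries from their group means correlated at 0.308 over all tested genes. There are only 2 pairs of libraries, too few to show a pairing. The biological coefficient of variation was 0.201 without the block and 0.151 with it.

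Median log2 fold changes of lists moved as follows. The other activators and inhibitor stood at -0.07 with upper quartile scaling, -0.08 with a mean of at least 50 counts, -0.06 by limma on log2(FPKM + 1), -0.06 on log2(FPKM + 0.1), and -0.16 to 0.04 with 1 library left out. Interferon-side regulators stood at -0.12 by limma on log2(FPKM + 1) and at -0.25 to -0.08 with 1 library left out. The leave-one-out ranges were -0.28 to -0.15 for peptide supply, -0.15 to -0.05 for the NRF1 axis, -0.09 to 0.05 for 19S non-ATPases, -0.23 to 0.05 for assembly chaperones and -0.08 to 0.18 for ubiquitin genes. The other 271 values moved by less than the replicate spread or kept direction and test outcome, but several of these also changed sign with 1 library left out. Their ranges were -0.32 to 0.19 for the constitutive median, -0.24 to 0.11 for the alpha ring, -0.23 to 0.19 for the non-catalytic beta ring, -0.12 to 0.18 for 19S ATPases, and, for differences of log2 ratio, -0.26 to 0.05 for PSMB8 to PSMB5, -0.48 to 0.09 for PSMB9 to PSMB6 and -0.43 to 0.49 for PSMB10 to PSMB7. With 2 libraries per group, a 1.5-fold decrease lay within the interval of 4 members and a 1.5-fold increase within that of 1.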
